A study of Rattus norvegicus with 6 samples.

Results

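The 10 genes described here are Adipoq, Lep, Plin1, Plin4, Fabp4, Cidec, Lipe, Pparg, Retn and Cfd, the usual transcripts of white fat cells, measured in dissected rat sciatic nerve. They are 10 of the 30957 genes in the mRNA count table, were found by gene name, and were chosen by their measured counts in the 2 libraries of the D7 group, which had been seen to differ in fat genes. The difference between those libraries is therefore given as a description, without a test. The nerves came from Sprague-Dawley rats, 1 month old per the study's methods, in 3 groups of 2 rats with 1 library each, called a and b. Controls carry the label normal control, and the study's methods describe them as undergoing the same operation without the clamp. In the D4 and D7 groups the middle part of the left sciatic nerve was crushed with hemostatic forceps, and the nerve was taken 4 or 7 days later. The letters a and b only name the libraries of a group and do not pair rats across groups.

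White adipocytes lie in the loose outer sheath of the sciatic nerve, the epineurium, among vessels, fibroblasts and resident immune cells. They store triglyceride in a single large droplet coated with perilipins, release fatty acids through a chain of lipases, and secrete hormones such as adiponectin and leptin. The receptor Pparg turns on most of these genes as a fat cell matures, so that droplet, lipase and hormone genes are commonly used together as markers of the mature cell. In bulk RNA of this kind, fewer cells of a type and less RNA per cell cannot be told apart.

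All 10 genes were detected in every library and passed the low-count filter, which 15195 of the 30957 mRNAs did. Library totals ran from 18727255 to 25350886 mRNA fragments. Levels are in CPM, counts divided by the library total and scaled by trimmed mean of M values (TMM) unless another scale is named. In the control nerves the FPKM values deposited by the authors, which divide fragments by transcript length and library total, were highest for Cfd (253 and 267), Fabp4 (196 and 178) and Adipoq (141 and 116). Plin1 followed at 71.6 and 67.6, and the values of these 4 genes did not overlap between neighbours. Retn (47.5 and 56.7), Lipe (49.0 and 31.8) and Cidec (43.1 and 28.1) came next with overlapping ranges, and Pparg (18.8 and 15.8), Lep (16.0 and 12.3) and Plin4 (16.2 and 10.8) were lowest, each overlapping the next. The defining adipocyte transcripts were thus all present in the control nerves.

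The members fall into 4 roles. Pparg (chromosome 4, 147274107 to 147399380, Rnor_6.0) encodes the nuclear receptor that drives adipocyte differentiation. Plin1 (chromosome 1, 141458181 to 141471010), Plin4 (chromosome 9, 10963723 to 10971277) and Cidec (chromosome 4, 145377431 to 145390497) encode proteins of the lipid droplet surface. Fabp4 (chromosome 2, 93792601 to 93797305) encodes a fatty acid carrier and Lipe (chromosome 1, 82248046 to 82266727) encodes hormone-sensitive lipase. Adipoq (chromosome 11, 81330293 to 81344488), Lep (chromosome 4, 56337695 to 56351818), Retn (chromosome 12, 2201891 to 2204249) and Cfd (chromosome 7, 12634170 to 12636004) encode the secreted proteins adiponectin, leptin, resistin and complement factor D, also called adipsin. Fabp4, Lipe, Pparg and Cfd are also transcribed outside fat, for example in macrophages, endothelium, muscle or stromal cells.

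The start regions of the members are shown as a description, and whether they bear on the levels was not tested. The RefSeq promoter table, on build GRCr8, held a window of 250 bases before to 50 after the annotated start for 8 of the 10 genes, all but Fabp4 and Lipe. The letters TTGCNNAA, a form of the site bound by the C/EBP factors of adipogenesis, were searched for on both strands and stood in the windows of 4 members, Lep, Plin1, Cidec and Pparg. Of all 33469 windows in the table, 10.6% held them, and 11.4% of the 27457 genes had a window with them. The 250 bases before the start of these 4 are printed 5′ to 3′ on the strand of the gene, with the match in capitals. The match begins 69, 77, 209 and 174 bases before the start, in that order, and for Pparg it lies at the second of 2 annotated starts.
Lep (chr4:58626288-58626537, plus strand): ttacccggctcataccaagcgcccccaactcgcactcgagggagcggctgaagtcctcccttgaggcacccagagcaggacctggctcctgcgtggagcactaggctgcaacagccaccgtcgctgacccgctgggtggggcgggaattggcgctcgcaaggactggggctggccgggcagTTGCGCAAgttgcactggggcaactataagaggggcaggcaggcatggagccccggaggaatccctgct
Plin1 (chr1:143086149-143086398, minus strand): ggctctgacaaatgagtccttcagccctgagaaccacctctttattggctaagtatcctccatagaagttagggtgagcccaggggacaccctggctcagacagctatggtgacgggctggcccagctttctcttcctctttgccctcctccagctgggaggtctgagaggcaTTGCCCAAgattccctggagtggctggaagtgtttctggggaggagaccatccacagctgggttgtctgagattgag
Cidec (chr4:148137116-148137365, minus strand): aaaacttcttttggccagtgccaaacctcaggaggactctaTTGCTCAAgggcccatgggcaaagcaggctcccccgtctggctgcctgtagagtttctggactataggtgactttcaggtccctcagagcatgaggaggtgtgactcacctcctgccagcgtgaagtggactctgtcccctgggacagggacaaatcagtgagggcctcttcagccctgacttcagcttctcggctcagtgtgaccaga
Pparg (chr4:150154522-150154771, plus strand): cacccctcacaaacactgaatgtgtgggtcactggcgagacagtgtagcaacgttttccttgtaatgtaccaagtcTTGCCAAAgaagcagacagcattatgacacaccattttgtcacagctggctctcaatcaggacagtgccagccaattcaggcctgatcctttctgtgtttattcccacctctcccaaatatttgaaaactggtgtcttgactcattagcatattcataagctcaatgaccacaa
The looser letters TTNNGNAA, which include every TTGCNNAA match read on the other strand, stood in 5 members (the same 4 and Retn) and in 41.3% of all windows. The PPAR site, a direct repeat of AGGTCA with 1 base between the copies, was in the window of no member and in 0.0538% of all windows. The same repeat of AGGNCA (0.415% of windows), also without its first A (0.804%), was in no member's window. A single AGGTCA was in Retn (16.2% of windows) and the letters TATAAA in Pparg (14.2% of windows). These are matches of letters in one window per start and say nothing of whether a factor was bound.

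In D7 library a every member lay below its level in the other 5 libraries, while D7 library b lay below the controls, above both D4 libraries for 7 members and between them for Plin4, Lipe and Cfd. Pparg stood at 49.9 and 41.1 CPM in the controls, 11.9 and 7.43 at D4, and 1.17 in D7 library a against 17.7 in D7 library b. The 2 D7 nerves thus lay on either side of both D4 nerves for this gene, 15.1-fold apart.

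The droplet genes also differed widely between the D7 nerves. Plin1 stood at 318 and 292 in the controls, 59.6 and 32.9 at D4, and 1.36 and 98.8 in D7 libraries a and b. Cidec stood at 169 and 108 in the controls, 45.1 and 21.4 at D4, and 0.470 and 50.9 at D7. Plin4 stood at 78.5 and 50.9 in the controls, 21.4 and 10.7 at D4, and 0.235 and 18.1 at D7. For Plin1 and Cidec, D7 library b was above both D4 libraries, and for Plin4 it fell between them. D7 library b exceeded D7 library a by 72.6-fold for Plin1, 108-fold for Cidec and 76.9-fold for Plin4.

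The fatty acid carrier Fabp4 stood at 217 and 192 in the controls, 57.3 and 30.1 at D4, and 2.68 and 87.7 at D7, a 32.8-fold gap between the D7 nerves. Lipe, the lipase, had the narrowest gap, at 4.32-fold. Its level was 211 and 133 in the controls, 69.7 and 40.7 at D4, and 14.0 and 60.5 at D7, so that D7 library a kept 8.15% of the control mean.

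Among the secreted products, Adipoq stood at 550 and 442 in the controls, 134 and 63.9 at D4, and 2.30 and 185 at D7. Lep stood at 60.9 and 45.9 in the controls, 13.4 and 5.17 at D4, and 0.282 and 16.4 at D7. Retn stood at 84.2 and 97.9 in the controls, 15.5 and 15.2 at D4, and 0.798 and 43.8 at D7. Adiponectin, leptin and resistin transcripts were thus 80.2-fold, 58.3-fold and 54.9-fold higher in D7 library b than in a. Cfd behaved differently in the injured nerves. It stood at 278 and 286 in the controls, 254 and 120 at D4, and 45.6 and 230 at D7, so that D4 library a and D7 library b were close to the controls and the D7 libraries were 5.05-fold apart.

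**Figure D1:**
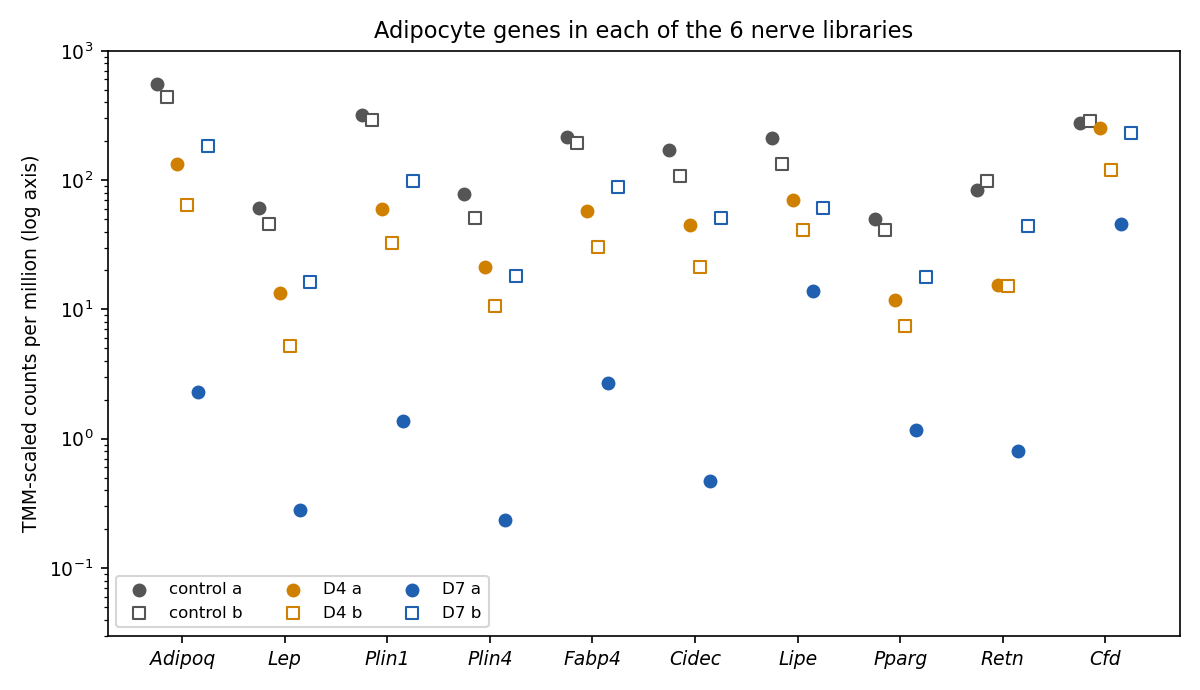
Level of each of the 10 adipocyte genes in each of the 6 nerve libraries, in TMM-scaled CPM on a log axis; filled circles are libraries a and open squares libraries b. D7 library a (filled blue circles) is lowest for every gene, from 0.235 for Plin4 to 45.6 for Cfd, and the controls are highest for every gene.

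The counts behind D7 library a were small for several members, which widens the error of these folds. Lep had 6 fragments there (95% Poisson interval 2.20 to 13.1) and Plin4 had 5 (1.62 to 11.7), against 332 and 365 in D7 library b. Cidec had 10 fragments (4.80 to 18.4) against 1028, and Retn had 17 (9.90 to 27.2) against 886. Adipoq had 49 (36.3 to 64.8) against 3730. For these 5 genes the upper bound in D7 library a remained far below the count in D7 library b. The intervals cover counting error only.

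Few genes of the whole table had a distance of this size between the D7 nerves. Of the 15195 mRNAs tested, 93.5% lay within 2-fold of each other in the D7 libraries, and 259 (1.70%) were at least 4-fold lower in library a. All 10 members were among these 259, as their choice implies. Ordered from the lowest ratio of a to b, Cidec was number 4, Adipoq 6, Plin1 7, Plin4 10, Retn 11, Lep 16 and Fabp4 22, while Pparg was number 55, Cfd 206 and Lipe 234. Lipe and Cfd were the members nearest the edge of the 4-fold class.

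The same genes differed less between the libraries of the other groups. On a log2 scale, library a over b had a median of -5.54 over the members at D7 (from -6.50 for Cidec to -2.10 for Lipe). At D4 the median was 0.96, with library a higher for all 10 members, from 0.02 for Retn to 1.36 for Lep. In the controls it was 0.30, from -0.22 for Retn to 0.66, with library a higher for 8 members. The median over all mRNAs tested was -0.00352 at D7, -0.01 at D4 and 0.02 in the controls. The D4 nerves therefore also differed in one direction across the members, at about 2-fold and with Retn level, whereas the D7 nerves differed in the opposite direction of letters and by far more.

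**Figure D2:**
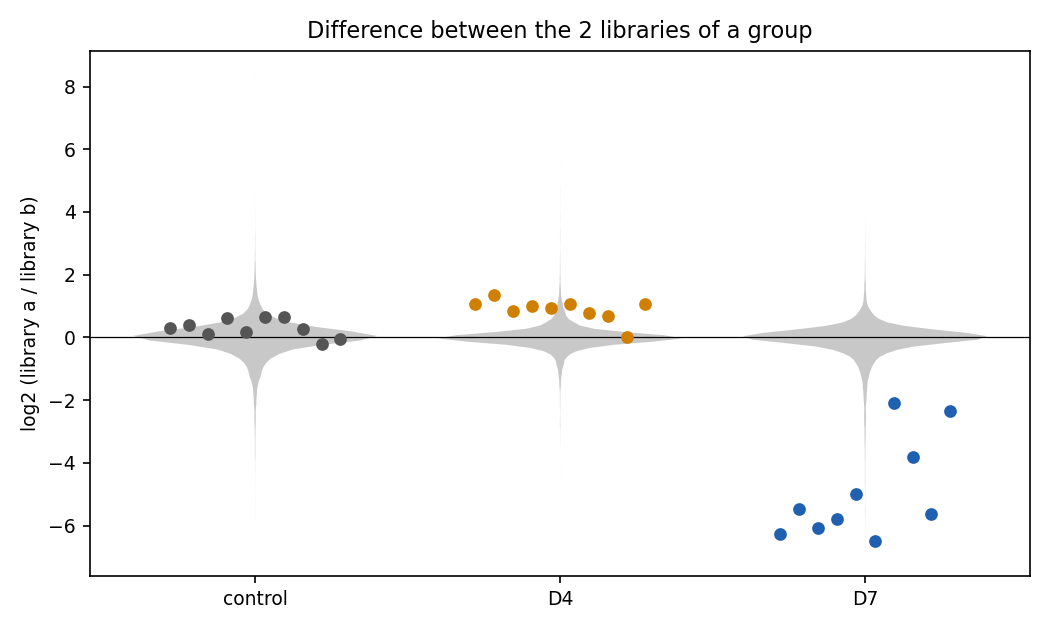
Log2 ratio of library a to library b within each group; points are the 10 members, from left to right Adipoq, Lep, Plin1, Plin4, Fabp4, Cidec, Lipe, Pparg, Retn and Cfd, and grey shapes show the spread of all 15195 mRNAs tested. The control points lie near 0, the D4 points between 0.02 and 1.36, and the D7 points between -6.50 and -2.10.

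Expressed relative to Adipoq in the same library, some members varied little in proportion and others much. Adipoq itself ranged 239-fold across the 6 libraries, and 8.62-fold without D7 library a. The ratio of counts to Adipoq stayed within a 1.48-fold range for Plin1 (0.446 to 0.662), 1.51-fold for Lep (0.0810 to 0.122), 1.65-fold for Cidec (0.204 to 0.338) and 1.71-fold for Plin4 (0.0979 to 0.168). These are the 3 droplet genes and leptin. Fabp4 ranged 2.95-fold, through its value of 1.16 in D7 library a against 0.394 to 0.475 in the other 5. Retn ranged 2.99-fold, from 0.116 in D4 library a to 0.347 in D7 library a, with 0.238 in both D4 library b and D7 library b.

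Pparg, Lipe and Cfd had their highest proportion in D7 library a. The ratio of Pparg to Adipoq was 0.510 there and 0.0891 to 0.116 elsewhere. For Lipe the ratio was 6.08 there and 0.301 to 0.638 elsewhere. The ratio of Cfd to Adipoq was 0.504 and 0.648 in the controls, 1.90 and 1.88 at D4, 1.25 in D7 library b and 19.8 in D7 library a. The ratio of Cfd was thus higher in all 4 injured nerves than in the controls. Counting error in the D7 library a ratios (1 relative standard error) is 24.6% for Pparg, 15.4% for Lipe, 14.6% for Cfd, 19.5% for Fabp4 and 28.1% for Retn. For the genes with nearly level ratios it is 23.4% for Plin1, 34.7% for Cidec, 43.3% for Lep and 46.9% for Plin4, so that their ratio in D7 library a is known only roughly.

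**Figure D3:**
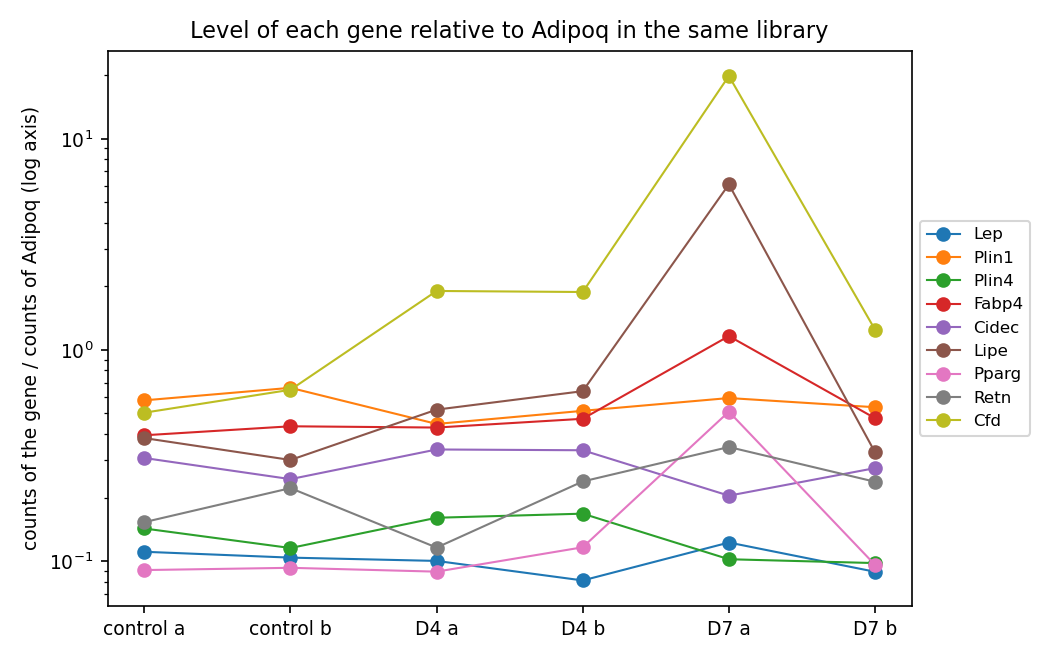
Counts of each of the other 9 members divided by the counts of Adipoq in the same library, on a log axis; lines only join the points of a gene and mark no order of libraries. Plin1, Lep, Cidec and Plin4 run nearly level, while Lipe reaches 6.08 and Cfd 19.8 in D7 library a.

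The levels at D4 and in the controls do not come from the libraries that chose the genes. Those libraries do enter the estimate of the spread in the main fit. Every member was lower in both D4 libraries than in both control libraries, which was also true of 39.4% of all mRNAs tested. The D4 mean was 15.2% of the control mean for Plin1, 16.9% for Retn, 17.4% for Lep, 19.9% for Adipoq, 21.2% for Pparg, 21.4% for Fabp4, 24.0% for Cidec, 24.8% for Plin4 and 32.1% for Lipe. Cfd stood apart at 66.4%, with D4 library a at 90.1% of the control mean.

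Whether these differences passed the test depended on whether both D7 libraries entered the fit. With all 6 libraries in edgeR's quasi-likelihood test, called at a Benjamini-Hochberg adjusted p under 0.05 and a 2-fold change, 0 of the 10 members were called at D4, against 21.9% of all mRNAs tested (10.7% lower). DESeq2 also called 0, and 1 member, Lipe, had an unadjusted p under 0.05 in edgeR, as had 8088 of the 15195 mRNAs. The gap between the D7 libraries, by which the genes were chosen, widens the shared spread of these fits. Nothing is therefore read from these counts beside the shares of all mRNAs. The fit of all libraries gave Adipoq a log2 fold change of -2.33 with an SE of 1.47 (adjusted p = 0.240 by edgeR) and Retn -2.57 with an SE of 1.25 (adjusted p = 0.142 by edgeR). When the fit held only the control and D4 libraries, the estimates hardly moved and their errors shrank, and 9 of the 10 members were lower, against 11.0% of all mRNAs. Cfd was the exception, with an adjusted p of 0.251 in edgeR's test. Leaving out only D7 library a, or only D7 library b, gave nearly the same estimates, for Adipoq -2.29 and -2.33. A single D7 library has its own group mean and adds nothing to a gene's spread. These fits thus rest on the same control and D4 libraries and are not added support.

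In the fit of only control and D4 (edgeR's quasi-likelihood test, Benjamini-Hochberg adjustment), the hormone genes fell, with log2 fold changes of -2.52 for Retn (SE 0.12, adjusted p = 0.000326), -2.48 for Lep (SE 0.45, adjusted p = 0.00953) and -2.28 for Adipoq (SE 0.36, adjusted p = 0.00645). The droplet genes fell as well, with -2.67 for Plin1 (SE 0.29, adjusted p = 0.00201), -2.01 for Cidec (SE 0.40, adjusted p = 0.0131) and -1.96 for Plin4 (SE 0.38, adjusted p = 0.0116), in the same edgeR fit. Fabp4 (-2.17, SE 0.31), Pparg (-2.18, SE 0.25) and Lipe (-1.58, SE 0.33) were also lower, with edgeR adjusted p values of 0.00449, 0.00233 and 0.0145. This fit holds neither of the D7 libraries that chose the genes. It was 1 of the alternatives and not the main fit here, which held all libraries and called 0 of the 10 members. Its spread comes from the control and D4 pairs alone. The p values therefore leave out the distance seen between the D7 nerves, 54.9-fold for Retn. Each member also correlated at 0.963 to 0.999 with the mean of the other 9, so the 9 calls are not 9 separate results. The study's methods name edgeR for control against D4 and do not say whether the D7 libraries entered that fit.

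**Figure D4:**
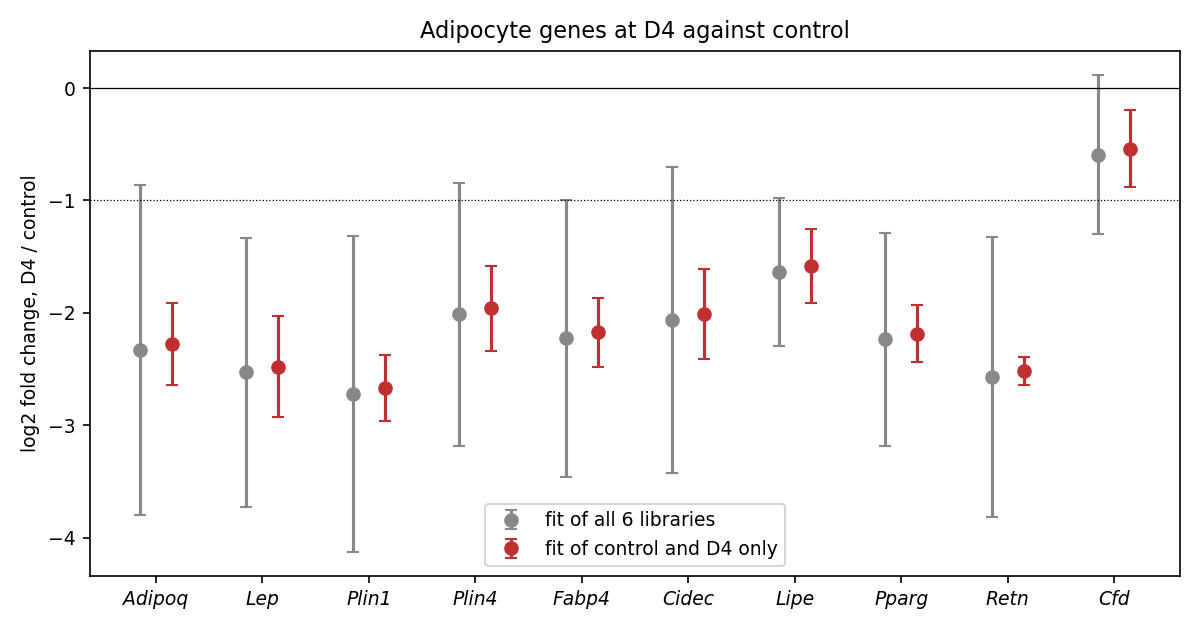
Log2 fold change of D4 against control for each member, from the edgeR fit of all 6 libraries (grey) and from the fit of only control and D4 (red); bars are 1 standard error and the dotted line marks a 2-fold decrease. The points nearly coincide and the bars shorten, for Adipoq from 1.47 to 0.36, while Cfd stays near -0.59 and -0.54.

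At D7 the groups of 2 again did not overlap, with every member lower in both D7 libraries than in both controls, as for 34.7% of all mRNAs tested. D7 library b alone stood at 27.9% (Plin4) to 48.2% (Retn) of the control mean for 9 members and at 81.7% for Cfd. D7 library a stood at 0.339% (Cidec) to 2.58% (Pparg) for 8 members, at 8.15% for Lipe and at 16.2% for Cfd. The pooled D7 fold change of each member is therefore an average over nerves that differ at least 4-fold. In the edgeR fit of all 6 libraries 1 member, Lipe, was called lower at D7 (log2 fold change -2.21, SE 0.67, adjusted p = 0.0450), against 18.8% of all mRNAs tested (9.02% lower), and DESeq2 also called 1. As the D7 libraries chose the genes, nothing further is read from this count. The other members had log2 fold changes of -2.83 (Plin4) to -1.03 (Cfd).

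The Lipe call was lost in 8 of the 14 alternatives tried, with edgeR adjusted p values of 0.0581 to 0.131. Without D7 library a 3 members were lower at D7 (Plin1, Pparg and Retn), where 6.16% of all mRNAs were, and without D7 library b all 10 were, where 9.46% of all mRNAs were. Each of these fits holds a single D7 nerve of the pair that chose the genes and assumes that it varies like the other groups, so these counts are a description and nothing is read from them.

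Between D7 and D4 the members of the groups overlapped for all 10 genes, since D7 library a was below and D7 library b usually above the D4 libraries. None was called by edgeR or DESeq2, against 2.18% of all mRNAs called by edgeR. None had an unadjusted p under 0.05 in edgeR, against 3754 of the 15195 mRNAs. The genes were chosen by the difference between the D7 libraries, which widens the spread in these fits, so nothing is read from these counts. Fits with a single D7 nerve again rest on values that chose the genes and are given as a description. Without D7 library a, Retn was called higher at D7 than at D4, as were 0.557% of all mRNAs, with 15.5 and 15.2 CPM at D4 and 43.8 in D7 library b. Without D7 library b, 7 members were called lower, as were 1.16% of all mRNAs, namely Adipoq, Plin1, Plin4, Fabp4, Cidec, Pparg and Retn. The log2 fold changes of D7 over D4 ran from -0.82 to 0.54 with all libraries, from 0.12 to 1.50 without D7 library a and from -6.13 to -1.98 without D7 library b, so that all 10 changed sign between these last fits.

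A further 72 genes in 10 lists, from fatty acid uptake to progenitor markers, were examined in the same fit. Of these, 69 were found, 63 were tested and 4 were listed at 0 in every library. At D4, 22 were lower and 3 higher, against 10.7% of all mRNAs lower and 21.9% called either way. At D7, 17 were lower and 1 higher, against 9.02% lower and 18.8% either way. With such shares, 1 or 2 calls in a short list do not set it apart. The 63 genes had median log2 fold changes of -1.16 and -1.24 against -0.04 and 0.01 over all mRNAs. In the D7 libraries 18 of the 63 were at least 4-fold lower in a and 42 lay within 2-fold. The gap between the D7 nerves was therefore shared by some fat metabolism genes and absent from others, and the lists differed in this.

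Most of the uptake genes resembled the members. Lipoprotein lipase, Lpl, which frees fatty acids from circulating triglyceride, had 27138 and 23293 counts in the controls, 6591 and 3655 at D4, and 545 and 10306 at D7. The glycerol channel Aqp7 had 527, 438, 125, 77, 6 and 191 counts in the same order. Acsl1, which activates fatty acids, fell at D4 (log2 fold change -2.67, edgeR adjusted p = 0.0238), as did the insulin-responsive glucose transporter Slc2a4 (-2.77, edgeR adjusted p = 0.0270). These 2 were the ones called of the 8 uptake genes at D4, and Acsl1 was the one called at D7. Of all mRNAs tested, 10.7% and 9.02% were called lower on these days. The median log2 ratio of a to b in the D7 libraries was -2.43 over this list, with 6 of 8 genes at least 4-fold lower in a. The fatty acid transporter Slc27a1, with 3174 and 2670 counts at D7, did not show the gap. Nor did the fatty acid carrier Fabp5, with 307 and 228 counts in the controls, 563 and 433 at D4, and 518 and 502 at D7, which was not called (log2 fold changes of 0.40 and 0.73).

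Fatty acid synthesis genes are also used by myelinating Schwann cells. Of 9 tested, 5 were lower at D4 and 4 at D7, against 10.7% and 9.02% of all mRNAs tested. Log2 fold changes at D4 were -3.97 for Me1 (SE 1.02), -3.35 for Fasn (SE 0.60), -2.87 for Acaca (SE 0.32) and -1.60 for Acacb (SE 0.17). Fasn, the fatty acid synthase, had 115090 and 135508 counts in the controls, 15545 and 20225 at D4, and 14006 and 48421 at D7. Within the list the D7 gap split the genes. Thrsp, a regulator of lipogenesis, had 59 counts in D7 library a and 4737 in b, and the desaturase gene Scd had 1698 and 92576. Mlxipl, a carbohydrate-sensing transcription factor, had 37 and 407. Acacb, the carboxylase isoform tied to mitochondria, had 231 and 278, and Acaca had 3887 and 7243, so that these 2 lay within 2-fold after scaling.

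Triglyceride synthesis genes were lower in 5 of 7 at D4 and in 3 at D7, against 10.7% and 9.02% of all mRNAs tested. The log2 fold changes at D4 were -3.09 for Gpd1 (SE 0.97), which makes glycerol phosphate, -3.02 for Dgat2 (SE 0.74), the last acyltransferase, -2.41 for Gpam (SE 0.25), the first, and -1.44 for Agpat2 (SE 0.38). Gpd1 had 365 and 3648 counts in the D7 libraries and Dgat2 584 and 2955, whereas Gpam had 1933 and 2453. Pck1, the enzyme of glyceroneogenesis, varied within every group, with counts of 5143 and 855 in the controls, 1552 and 693 at D4, and 19 and 491 at D7, and was not called.

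Lipolysis genes gave 3 of 5 lower at D4 and 2 at D7, against 10.7% and 9.02% of all mRNAs tested. Adrb3, the beta-3 adrenergic receptor of fat, had 241 and 316 counts in the controls, 35 and 42 at D4, and 11 and 102 at D7. It fell by 3.39 at D4 on the log2 scale (SE 0.87, edgeR adjusted p = 0.0225). Monoglyceride lipase, Mgll, had 6455 and 4143 counts in the controls, 1138 and 1292 at D4, and 1027 and 1019 at D7. Mgll fell by 2.62 at D4 and by 2.56 at D7 without any gap between the D7 nerves. G0s2, an inhibitor of the first triglyceride lipase, fell by 2.07 at D4, with 61 and 120 counts at D7, and Pde3b, the phosphodiesterase through which insulin restrains lipolysis, had a log2 fold change of -0.47 (edgeR adjusted p = 0.105). Pnpla2, that first lipase, was listed at 0 in all 6 libraries, which does not show absence, since the collagen gene Col1a2 was listed at 0 as well.

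Among other droplet and caveolar genes, 2 of 7 were lower and 1 higher at D4, against 10.7% of all mRNAs lower and 21.9% either way. Plin2, the perilipin of small droplets in many cell types, had 758 and 596 counts in the controls, 2478 and 2092 at D4, and 1535 and 1144 at D7. It rose at D4 by 1.25 on the log2 scale (SE 0.18, edgeR adjusted p = 0.00259). Cav1, the caveolar coat protein, fell by 1.46 at D4 and by 2.01 at D7, and Fitm2 by 1.16 and 1.02, on the log2 scale. Cidea, a relative of Cidec, had 102 and 64 counts in the controls, 35 and 27 at D4, and 7 and 44 at D7, and was not called.

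Of 6 other adipokine genes tested, Serpina12, which encodes vaspin, was the one called at D4, with counts of 57 and 221 in the controls, 10 and 10 at D4, and 0 and 30 at D7. Rbp4, retinol binding protein, had 3029 and 3051 in the controls, 738 and 464 at D4, and 66 and 1609 at D7. Nrg4, a neuregulin released by fat, had 72, 76, 26, 20, 3 and 30 in the same order. None of these 6 was called at D7 by edgeR. Of the 4 adipokine receptors, Lepr, the leptin receptor, was lower at D4 (log2 fold change -1.38, SE 0.18) and at D7 (-2.02, SE 0.19), with 602 and 692 counts in the D7 libraries and hence no gap. Adipor2 (log2 fold change -0.24 at D4) and Cdh13, a binding partner of adiponectin (-0.42), were not called.

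The transcription factors of adipogenesis did not share the gap at D7. All 10 lay within 2-fold between the D7 libraries, unlike Pparg. At D4 3 were lower and 1 higher, and at D7 4 were lower, against 10.7% and 9.02% of all mRNAs lower on these days. Klf15 fell by 2.40 at D4 on the log2 scale, Zfp423 by 1.50 and Ebf1 by 1.04, and all of these were also lower at D7. Cebpb, an early and injury-responsive member of the C/EBP family, had 211 and 107 counts in the controls, 975 and 754 at D4, and 264 and 318 at D7. It rose at D4 by 1.96 on the log2 scale (SE 0.30, edgeR adjusted p = 0.00358). Cebpa, the later member, had 700 and 1104 counts in the D7 libraries and was not called (log2 fold change -0.65 at D4 and -0.64 at D7). For Nr1h3, a sterol-sensing receptor, the change at D4 was -0.86 on the log2 scale, under the 2-fold limit.

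Of the brown fat markers found, all but Prdm16 were at or near 0. Ucp1 and Elovl3 were listed at 0 in every library, which does not show absence, as for Pnpla2. Cox8b reached at most 2 counts, and Dio2 ran from 1 to 10. Prdm16, which many other cells use, was the one tested and had a log2 fold change of 0.81 at D7, under the 2-fold limit. Of the 6 progenitor genes, Dlk1, a membrane protein of preadipocytes, had 90 and 37 counts in the controls, 827 and 864 at D4, and 763 and 537 at D7. It rose on both days, with log2 fold changes of 3.24 and 3.17 (edgeR adjusted p = 0.000778 and 0.00123). The others, among them Pi16 (log2 fold change 0.31 at D4) and Cd34 (-0.16), were not called, and all 6 lay within 2-fold between the D7 libraries.

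**Figure D5:**
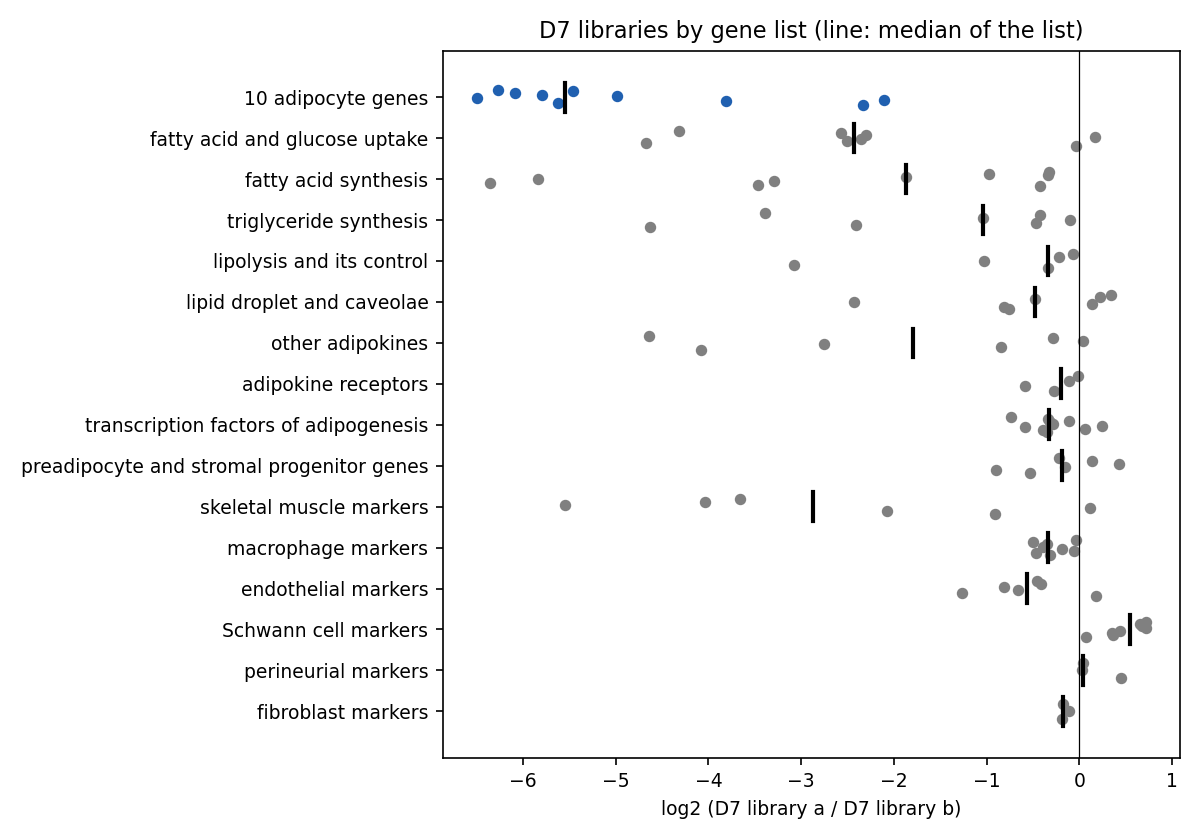
Log2 ratio of D7 library a to D7 library b for each tested gene of each list; points are genes, black lines the median of a list, and the vertical line marks equal levels. The 10 adipocyte genes have a median of -5.54, skeletal muscle markers -2.87, uptake -2.43, fatty acid synthesis -1.86 and other adipokines -1.80. The transcription factors (-0.33), progenitor genes (-0.18), macrophage (-0.33) and fibroblast markers (-0.17) lie close to 0.

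Markers of other cells that a dissected nerve can hold were read in the same libraries. Skeletal muscle markers, of which 6 of 8 were found, varied between the libraries of every group, with summed levels of 4.69 and 44.9 CPM in the controls, 88.0 and 7.54 at D4, and 8.12 and 22.8 at D7. In D7 library a 4 of these 6 were at least 4-fold lower than in b, and the defining markers Acta1 (2 and 46 counts) and Ckm (0 and 29) were among them. At D4 all 6 muscle markers and all 10 adipocyte genes were higher in library a. In the controls all 6 muscle markers were lower in library a, whereas 8 of the 10 adipocyte genes were higher there. The part of carried tissue in the adipocyte values was not tested.

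Schwann cell markers, 8 of 8 found, summed to 18232 in D7 library a and 11794 in b, within 2-fold for all 8 and with all 8 higher in a. Endothelial markers, 6 of 7 found, summed to 294 and 497, and perineurial markers, all 3 found, to 1523 and 1179. Macrophage markers, all 8 found, summed to 1447 and 1625 in the D7 libraries against 543 and 516 in the controls. Fibroblast markers summed to 13488 and 15125, with Col1a2 listed at 0. Apart from muscle, none of these lists had a gene 4-fold lower in D7 library a. Lower levels at D4 were not particular to the adipocyte genes. Schwann cell markers summed to 103039 and 70315 in the controls and 6016 and 6664 at D4. Endothelial markers summed to 912 and 1520, then 540 and 506, and perineurial markers to 2773 and 2255, then 939 and 963. Called lower at D4 were 5 of 8, 4 of 6 and 2 of 3, against 10.7% of all mRNAs. In contrast, 1 Schwann cell marker and all 8 macrophage markers were called higher.

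The genes whose pattern over the 6 libraries was most like that of the members were found by Pearson correlation of log2 level with the mean of the 10 members, among 13703 other genes with a mean level of at least 1 CPM. The 15 highest, which lay at 0.993 or above, are given as a description over 6 libraries that share group and depth. They were Agt, Tshr, Lgals12, Bin2a, Ces1d, Mpo, Apol11a, Cyp4b1, LOC691485, Tph1, Ptprr, Car3, Acvr1c, Dusp22 and Ak5. Car3, a carbonic anhydrase abundant in fat and muscle, had 24854 and 15142 counts in the controls, 9325 and 4440 at D4, and 97 and 9948 at D7. Ces1d, a carboxylesterase, had 4445, 3011, 1192, 671, 15 and 1837 counts in that order. Agt, which encodes angiotensinogen, had 1255, 968, 492, 317, 23 and 541.

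Several of the 15 are known from fat. Lgals12, a galectin of lipid droplets, had 478, 291, 118, 75, 2 and 143 counts in the same order, and Tshr, the thyrotropin receptor, had 991, 714, 286, 142, 3 and 278. Acvr1c, an activin receptor of fat cells, had 1484, 639, 467, 244, 7 and 374. The list also holds genes not described here as fat genes. Of these, Mpo, which encodes myeloperoxidase, had 929, 854, 195, 147, 1 and 295. Dusp22 had 222, 187, 222, 238, 108 and 201, a much smaller gap at D7. Without D7 library a the correlations of the 15 were 0.969 to 0.999. A Spearman correlation of 1 with the members was reached by 96 genes, since 6 libraries give few orders. Among the members themselves, the correlation of each with the mean of the other 9 ran from 0.963 for Lipe and 0.965 for Cfd to 0.999 for Adipoq and Plin1.

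The lncRNA counts at the same loci were read as well, but not as a separate readout where a transcript overlaps a member. Within 10 kb of the members 11 lncRNA transcripts were listed, 5 of them overlapping a member, at 6 of the 10 genes. Of these, 7 were tested, and 0 were called at D4 or D7 by edgeR, against 10.1% and 5.79% of the 14077 lncRNAs tested. The 3 tested ones that overlap a member carry its gap between the D7 libraries, which widens their spread in this fit. For NONRATT007220.2 the log2 fold change at D4 was -2.27 with an SE of 1.19. Nothing is therefore read from these counts beside the shares of all lncRNAs. Unadjusted p values under 0.05 in edgeR were found for 2 at D4 and 3 at D7, and DESeq2 called 0 and 1. The 2 at D4 went in opposite directions, NONRATT021706.2 higher (log2 fold change 1.64) and NONRATT000491.2 lower (-2.02). Shares of all lncRNAs on these measures were not counted, so nothing is read from them. The study, in its own comparisons, lists Retn among predicted targets of lncRNAs changed only at D4. It lists Lipe among those of lncRNAs changed only at D7. Both lists were limited to mRNAs that the study had also called. The 3 tested transcripts that overlap a member followed it in D7 library a. NONRATT007220.2, within Retn (chromosome 12, 2201913 to 2202801), had 94 and 124 counts in the controls, 20 and 31 at D4, and 1 and 53 at D7. NONRATT002404.2, within Lipe (chromosome 1, 82251162 to 82251514), had 72, 27, 25, 9, 2 and 10, and MSTRG.20460.1, within Pparg (chromosome 4, 147355413 to 147356583), had 38, 55, 17, 22, 2 and 20. Fragments may be shared between these transcripts and the genes they overlap, as the strand setting of the counting is not given in the sources used here. NONRATT021704.2, which lies near Cidec without overlapping it, had 64 and 47 counts in the D7 libraries against 10 and 1028 for Cidec, and so did not follow its neighbour.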

How the data were processed

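Sciatic nerve RNA from 6 rats was sequenced after removal of ribosomal RNA. The authors aligned the reads with HISAT2 2.0.4 and assembled transcripts with StringTie 1.3.0 on Rnor_6.0, per the labels, which also name edgeR. They deposited whole-number fragment counts per gene or transcript, not normalized, and FPKM values, which divide these counts by transcript length and by the library total. Replicates were not pooled.

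The counts were tested here with edgeR 4.0.16 in R 4.3.3. The filterByExpr function removed low counts, TMM factors ran from 0.863 to 1.08, and genes were tested by the quasi-likelihood F test with a mean per group over all 6 libraries. Adjusted p values are Benjamini-Hochberg values over all mRNAs, or all lncRNAs, tested. Calls needed an adjusted p under 0.05 and a change of 2-fold or more, the limits in the study's methods. Ratios between the libraries of a group used log2 CPM with a prior count of 2. The script was tested on simulated data. Alternatives included DESeq2 1.42.0, other scaling and filters, fits of only the groups compared, a block on the library letter and leaving out each library. Promoter windows came from RefSeq (GRCr8) and were matched by symbol, so no coordinates were carried between the builds.

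The members and lists were chosen with earlier results of these data known. All 10 members were named. From each other adipocyte list the text named up to 3 genes per day with the largest called change, and up to 3 with the largest ratio between the D7 libraries. The markers Acta1, Ckm, Col1a2, Ucp1, Elovl3, Cox8b, Dio2 and Pnpla2 and the genes Slc27a1 and Fabp5 were picked with their values in view. The genes most like the members were the 15 with the highest correlation outside all lists. Of the listed genes, Cavin1, Cox7a1, Myh2, Myh4 and Pecam1 were not found by symbol, Elovl6 had more than 1 identifier, and Scd was matched through a RefSeq synonym.

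Depth was 18727255 to 25350886 mRNA counts per library. With 2 rats per group, a p value weighs a change against a spread estimated over all groups in the fit and partly shared across genes. Intervals on counts cover counting error only.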

Additional observations from a re-analysis of the deposited data

How the results depend on the processing

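The number of members called lower at D4, 0 with all libraries, was 9 with only the 2 groups compared, and leaving out each library gave 0 to 9, the highest without D7 library a or b. At D7 the main count of 1 became 0 with only the 2 groups compared, 0 with no TMM factors and 0 with the replicate block, and 0 to 10 when each library was left out, with 3 without D7 library a and 10 without D7 library b. For D7 against D4 the count of 0 became 0 to 7 when each library was left out, with 1 without D7 library a and 7 without D7 library b, in opposite directions. Of the other adipocyte lists, 22 genes lower at D4 became 12 to 31 when each library was left out, with 14 without control library b, 14 without D4 library a and 12 without D4 library b. The 17 lower at D7 became 11 to 34, with 11 without control library b and 34 without D7 library b. The lncRNA count at the loci, 0 at both days, was 1 with DESeq2 at D7 and 0 to 1 when each library was left out, at D4 with 1 without D7 library a or b, and at D7 with 1 without D7 library b. The median log2 ratio between the D7 libraries was -3.25 from log2(FPKM + 1) against -5.54, since the added 1 lifts low values. The cause of the other changes was not tested. Of 276 values of single members against control under alternatives, 229 kept direction and call, 39 became called, 8 lost the call (all Lipe at D7) and 0 reversed. The fold changes are relative to TMM scaling, and without it the median log2 fold change over all mRNAs was 0.25 at D4 and 0.31 at D7.

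In a fit that took the letters as a replicate block, edgeR called 0 members at D4, 0 at D7 and 0 for D7 against D4, and 21 of the other adipocyte genes were lower at each day. The letters do not pair rats, and same-lettered deviations from the group mean correlated at 0.01 (control and D4), 0.19 (control and D7) and -0.13 (D4 and D7). With the D4 letters crossed, an alternative chosen after seeing the data, the block gave 334 calls over all mRNAs for D7 against D4 in place of 248. The alternatives for the other adipocyte lists were also added after seeing the data. With 2 nerves a group, low counts in D7 library a limit the size of the gap for Lep, Plin4 and Cidec, not its direction.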
